A study of Homo sapiens with 12 samples.

Results

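Nonsense-mediated mRNA decay was followed through 37 genes in the human neuroblastoma cell line SH-SY5Y, with and without FMR1. The genes were a fixed list of symbols, 18 decay and exon junction factors and 19 transcripts described as sensitive to the pathway, out of 59087 features in the count table. No measured value was part of the rule that chose them, though the list was made with earlier results of these data known. FMR1 encodes FMRP, an RNA-binding protein whose loss underlies fragile X syndrome. The 4 groups hold 3 libraries each: FMR1-KO cells in heavy medium, FMR1-KO cells in light medium, wild-type (WT) cells in heavy medium and WT cells in light medium. Every culture was kept for 2 weeks in SILAC medium with dialysed fetal bovine serum, in which lysine and arginine carry heavy stable isotopes of carbon and nitrogen (heavy) or the ordinary ones (light). The KO cells were 3 independently made lines, and a KO replicate number is a line number, so each line gave 1 library per medium. The labels give WT libraries only a number and nothing on separate derivation, so p-values measure the spread between these libraries, which may be technical. Loss of FMR1 and the derivation of a line cannot be told apart here.

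Nonsense-mediated decay removes mRNAs on which translation ends too early. In mammals the usual trigger is an exon junction complex, a set of proteins left on the mRNA near each splice junction, that lies well downstream of the stop codon. UPF2 and UPF3 proteins join that complex to the helicase UPF1, the kinase SMG1 phosphorylates UPF1, and SMG5, SMG6 and PNRC2 then recruit cleavage, decapping or deadenylation. Besides faulty mRNAs the pathway limits many normal ones, among them stress-response mRNAs such as GADD45A and GADD45B, spliced snoRNA host transcripts such as GAS5, and isoforms of splicing factors that include a poison exon, an exon whose inclusion brings an early stop codon.

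FMR1 averaged 12.4 CPM in KO libraries and 37.7 CPM in WT libraries. CPM, counts scaled to the TMM-adjusted size of the library, were computed here. The library labelled KO line 1 heavy had the highest FMR1 level of the KO libraries, 22.4 CPM, where the others had 7.19 to 12.8 CPM. Its deviation from the KO heavy mean hardly followed that of the light library of the same line (r = 0.05 across genes, against 0.586 and 0.646 for lines 2 and 3), so results are also given without it. Of 12 sympathetic neuroblastoma markers, 11 were at 1 CPM or more in every library, TH being the exception, and their summed level was 7476 to 10090 CPM in KO and 9730 to 10700 CPM in WT libraries. Of 12 markers of other cell types, 0 reached 1 CPM in every library, PTPRC, DCN, KRT5, CD3E and GFAP were at 0 throughout, and the sum was 1.64 to 3.33 CPM in KO and 3.25 to 4.12 CPM in WT libraries. Library totals ran between 25935152 and 40257027 counts.

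The poison exons show what makes some of these transcripts targets. For 5 splicing-factor members, a search of GENCODE 29 found an exon that puts a stop codon into a decay-annotated transcript. SRSF2, TRA2A and HNRNPDL, also listed here as splicing factors with poison exons, were not searched. The stretches below run 5′ to 3′ on the gene's strand from the first base of that exon to the stop. They were taken from the GENCODE 29 transcript sequences, with the stop codon in capitals.
TRA2B, exon at chr3:185931577-185931852, minus strand: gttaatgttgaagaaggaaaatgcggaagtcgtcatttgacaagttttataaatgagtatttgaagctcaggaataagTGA
SRSF3, exon at chr6:36599821-36600276, plus strand: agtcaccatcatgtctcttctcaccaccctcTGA
SRSF6, exon at chr20:43459153-43459420, plus strand: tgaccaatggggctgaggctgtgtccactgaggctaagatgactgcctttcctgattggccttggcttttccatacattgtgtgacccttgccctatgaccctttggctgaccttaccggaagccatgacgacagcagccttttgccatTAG
SRSF7, exon at chr2:38748898-38749346, minus strand: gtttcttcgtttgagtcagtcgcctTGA
RSRC2, exon at chr12:122520504-122520581, minus strand: cgtgcttatgcgcgaagagacTGA
The stop codon began after 21 bases of the exon in RSRC2 and after 149 bases in SRSF6. Over the members, 20 genes had 51 annotated decay transcripts with a stop codon, and in 50 of them the stop lay over 50 bases before the last exon junction, at a median of 329 bases. The counts are totals per gene, so a level below does not say how much of a gene's RNA held a poison exon.

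All 37 members passed the low-count filter over both media, where 16704 genes were tested. Among the 18 factors, MAGOH, MAGOHB and PNRC2 fell in KO cells and 0 rose. Among the 19 sensitive transcripts, UPP1, DNAJB2 and TMEM183A rose, and 6 of the 8 splicing factors with poison exons fell. Of all genes tested, 24.8% were called, 15.0% as higher and 9.78% as lower, so 3 of 18 factors lower and 3 of 19 transcripts higher are near the background. The median log2 fold change was -0.057 for the factors, -0.13 for the sensitive transcripts and 0.0029 for all genes. The calls rest on edgeR's quasi-likelihood test with Benjamini-Hochberg adjustment at 0.05, the adjusted p used below. That fit counts the 2 libraries of a KO line as independent. With counts summed per line, 3 KO lines against 3 WT sums, 272 genes (1.53%; 1.09% higher, 0.446% lower) and 0 members passed, and the lowest adjusted p of a member was 0.0613, for UPP1. In that fit 4 of 18 factors and 9 of 19 sensitive transcripts had an unadjusted p under 0.05, against 27.2% of all genes. With both libraries of KO line 2 left out of the first fit, 1710 genes were called, 1 factor (MAGOHB) and 1 sensitive transcript (TRA2B) as lower; with those of KO line 3 left out, 7415 genes were called, 6 factors as lower. These are bulk samples, in which fewer cells of a kind and less RNA per cell cannot be told apart.

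**Figure D1:**
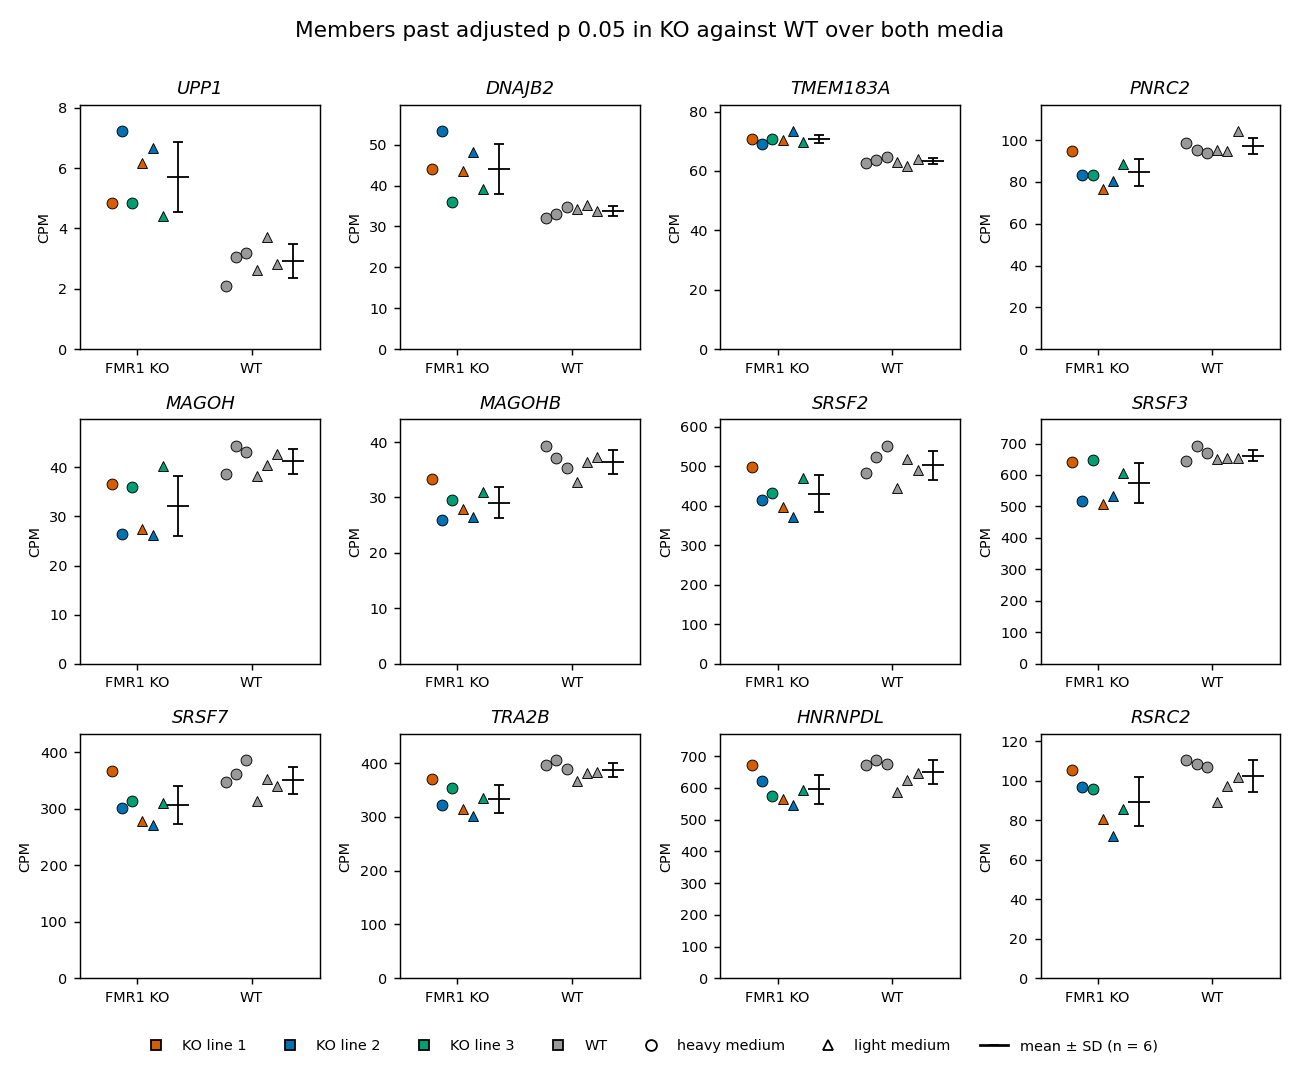
CPM of the 12 members called over both media, with KO left of WT in each panel, each point a library (circles heavy, triangles light medium, colours the KO lines) and bars the mean ± SD. UPP1, DNAJB2 and TMEM183A have all 6 KO libraries above all 6 WT libraries, and the other panels overlap.

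UPF1, the helicase at the centre of the pathway (chromosome 19, 18831938 to 18868236, plus strand), had 111, 107 and 102 CPM in KO heavy and 100.4, 99.5 and 122 CPM in KO light libraries, against 102, 112 and 117 CPM in WT heavy and 121, 122 and 120.2 CPM in WT light libraries. The light library of KO line 3 was as high as the WT light libraries, and the groups overlapped. The mean was 107 ± 8.68 CPM in KO and 116 ± 7.51 CPM in WT (SD, n = 6 each), which is -0.11 on the log2 scale (SE 0.0568, adjusted p = 0.172). Without the light library of KO line 3 it was -0.15 (adjusted p = 0.0413). UPF2 and the paralogs UPF3A and UPF3B, which bridge UPF1 and the exon junction complex, had log2 fold changes of -0.04, 0.03 and -0.15 and did not pass. UPF3B was the nearest of them, at 30.8 CPM in KO and 34.1 CPM in WT libraries (adjusted p = 0.113).

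The kinase SMG1 and its partners SMG8 and SMG9 did not pass over both media, with log2 fold changes of -0.04, -0.02 and -0.07. SMG1 has near-identical pseudogene copies, so its count is uncertain. SMG8 ranged widely among KO heavy libraries, at 22.8, 20.7 and 34.7 CPM, against 29.6, 26.6 and 24.5 CPM in WT heavy libraries. SMG5, an adaptor on phosphorylated UPF1, had 178, 166 and 172 CPM in KO heavy and 139.9, 148 and 172 CPM in KO light libraries, against 164, 174 and 180.3 CPM in WT heavy and 178, 179.8 and 177 CPM in WT light libraries. The low values were those of KO lines 1 and 2 in light medium, and the log2 fold change was -0.11 (adjusted p = 0.168). The endonuclease SMG6 stood at 53.1 CPM in KO and 52.2 CPM in WT libraries.

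PNRC2, a decapping adaptor that binds UPF1 (chromosome 1, 23956839 to 23963462, plus strand), had 94.9, 83.1 and 83.4 CPM in KO heavy and 76.8, 80.5 and 88.6 CPM in KO light libraries. WT heavy libraries had 98.6, 95.5 and 94.0 CPM and WT light libraries 95.2, 94.8 and 104 CPM. All 3 KO light libraries were below all WT light libraries, as were 14.3% of the genes tested, while in heavy medium line 1 overlapped WT. PNRC2 fell (log2 fold change -0.20, SE 0.0518, adjusted p = 0.0153) and passed with each of the 12 libraries left out in turn (highest adjusted p = 0.039). With both libraries of KO line 2 left out its adjusted p was 0.0651.

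Of the exon junction complex, the core pair MAGOH and MAGOHB fell, and the helicase EIF4A3, the partner RBM8A, and CASC3 and RNPS1 did not pass. MAGOH and MAGOHB are paralogs that encode nearly the same protein, and their coding sequences were identical at 380 of 438 aligned bases (86.8%), with a longest identical run of 38 bases. Their last 90 coding bases are shown because reads from such stretches decide how the pair can be separated; the 12 bases that differ are in capitals.
MAGOH, chromosome 1, minus strand: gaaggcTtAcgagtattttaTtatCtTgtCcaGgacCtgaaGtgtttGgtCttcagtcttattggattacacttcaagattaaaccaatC
MAGOHB, chromosome 12, minus strand: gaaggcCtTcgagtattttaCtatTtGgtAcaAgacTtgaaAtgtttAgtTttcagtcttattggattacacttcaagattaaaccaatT
How the authors' counting treated reads that match both has no entry in the sources used here, which leaves the split between the pair uncertain.

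MAGOH (chromosome 1, 53226892 to 53238610) had 36.6, 26.4 and 36.0 CPM in KO heavy and 27.4, 26.3 and 40.3 CPM in KO light libraries, against 38.6, 44.4 and 43.2 CPM in WT heavy and 38.3, 40.5 and 42.6 CPM in WT light libraries. Line 2 was low in both media, line 1 most in light medium, and line 3 light lay within the WT range. In heavy medium all KO libraries were below all WT libraries, as were 10.3% of genes. Its log2 fold change was -0.36 (SE 0.108, adjusted p = 0.0289). The call was lost, at adjusted p = 0.0534 to 0.0681, when any of 7 libraries was left out: KO line 2 heavy, KO lines 1 and 2 light, and numbers 2 and 3 of WT heavy and of WT light. MAGOHB (chromosome 12, 10604190 to 10613623) had 33.3, 25.9 and 29.6 CPM in KO heavy and 27.9, 26.6 and 30.9 CPM in KO light libraries, against 39.4, 37.1 and 35.3 CPM in WT heavy and 32.8, 36.3 and 37.2 CPM in WT light libraries. KO was below WT throughout each medium, as were 10.3% of genes in heavy and 14.3% in light medium, and the genotypes overlapped over all 12 libraries only through KO line 1 heavy and WT light number 1. Its log2 fold change was -0.32 (SE 0.0657, adjusted p = 0.00487), and it passed with each library left out in turn.

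EIF4A3 averaged 102 ± 4.90 CPM in KO and 109 ± 4.65 CPM in WT libraries (SD, n = 6 each; log2 fold change -0.09, adjusted p = 0.0864). RBM8A, the obligate partner of MAGOH, averaged 219 ± 6.36 CPM in KO and 218 ± 5.81 CPM in WT libraries, and its log2 fold change of 0.01 changed sign with another scaling. Exon length was taken as the union over all annotated transcripts, so it depends on the annotation. Per kilobase of that length, RBM8A had the highest level of the factors, 39.2 CPM in KO and 39.0 CPM in WT libraries. SMG1, whose count is uncertain, had the lowest, 3.53 CPM in KO and 3.64 CPM in WT libraries. DHX34 and NBAS, helicase and trafficking proteins that take part in decay, had log2 fold changes of -0.10 and 0.13, neither called with every library in the fit. In heavy medium NBAS was above WT in all KO libraries, as were 14.9% of genes, at 50.05, 54.9 and 58.2 CPM in KO and 48.5, 46.3 and 46.9 CPM in WT libraries.

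**Figure D2:**
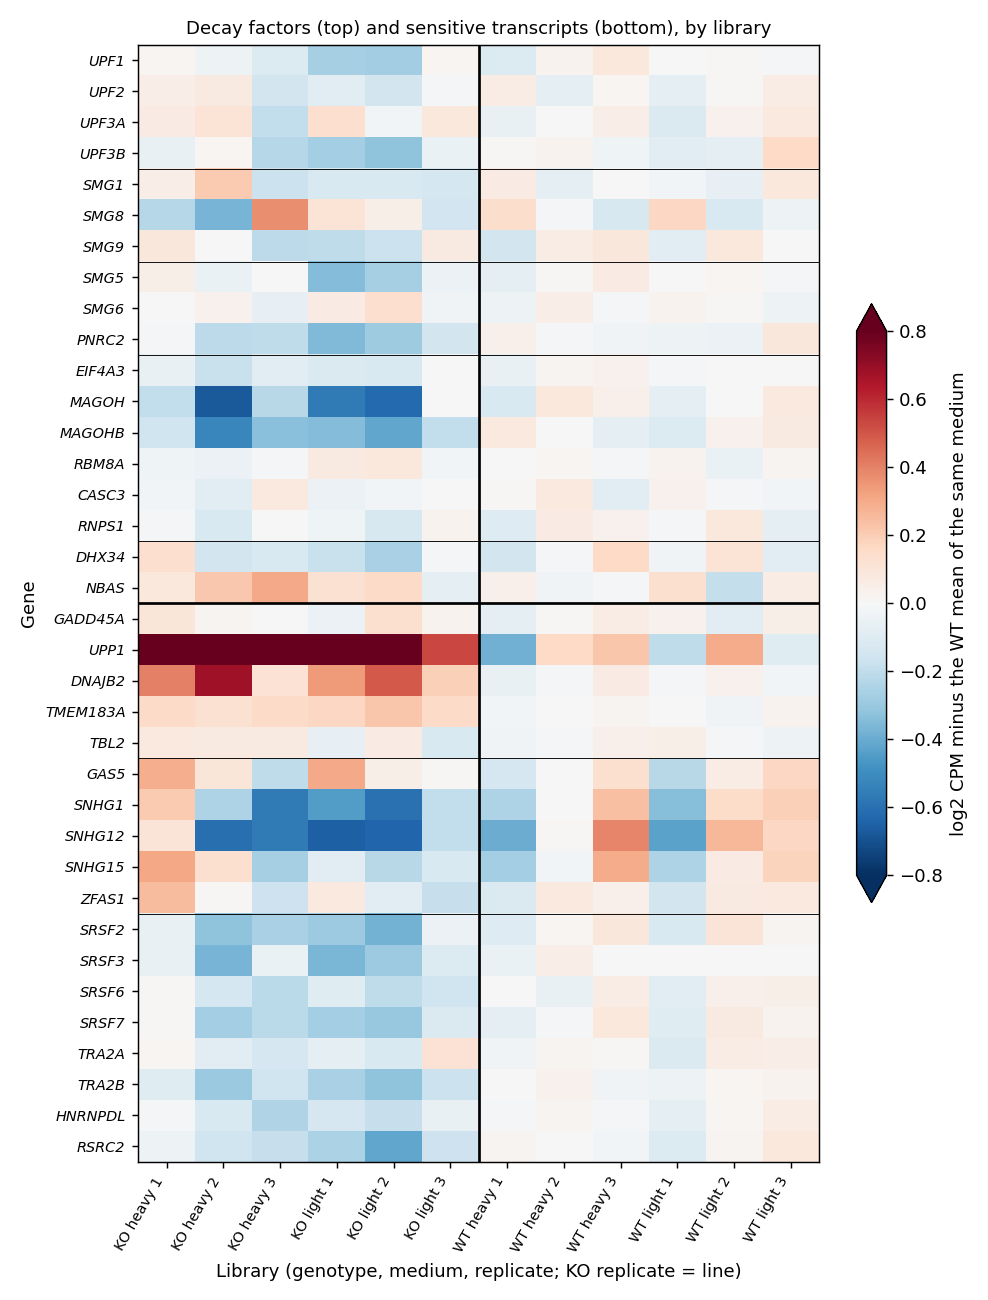
Log2 CPM of each member relative to the mean of the WT libraries of the same medium, 1 column a library with KO columns left of WT columns, factors on top (red higher, blue lower; the scale is capped). GADD45B is not shown because of its low counts. UPP1 is the strongest colour, and the splicing factors are on the low side in most KO columns.

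Of the stress and housekeeping mRNAs, 3 of 6 rose and 0 fell, where 15.0% of all genes rose and 9.78% fell. These 3 are the only ones of the 19 sensitive transcripts that rose, a count near the background. UPP1, uridine phosphorylase of pyrimidine salvage (chromosome 7, 48088628 to 48108733, plus strand), had 4.86, 7.22 and 4.85 CPM in KO heavy and 6.17, 6.68 and 4.40 CPM in KO light libraries. WT heavy libraries had 2.10, 3.06 and 3.20 CPM and WT light libraries 2.63, 3.73 and 2.83 CPM. Every KO library was above every WT library, and the log2 fold change was 0.96 (SE 0.157, adjusted p = 0.00183), 1.94-fold. Within light medium alone 15.4% of genes had KO above WT throughout. Over all 12 libraries such a separation was seen in 6.54% of the genes tested with KO above and in 4.0% with KO below.

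DNAJB2, a neuronal co-chaperone (chromosome 2, 219279267 to 219286900, plus strand), had 44.1, 53.3 and 36.1 CPM in KO heavy and 43.5, 48.3 and 39.2 CPM in KO light libraries. WT heavy libraries had 32.0, 33.1 and 34.8 CPM and WT light libraries 34.2, 35.2 and 33.8 CPM. All KO libraries were above all WT libraries, line 2 most and line 3 least, and the log2 fold change was 0.38 (SE 0.0807, adjusted p = 0.00608). TMEM183A, a transmembrane protein gene (chromosome 1, 203007386 to 203024848, plus strand), had 70.7, 69.2 and 70.8 CPM in KO heavy and 70.5, 73.4 and 69.8 CPM in KO light libraries, against 62.8, 63.6 and 64.7 CPM in WT heavy and 62.9, 61.6 and 64.0 CPM in WT light libraries. The groups did not overlap, lines 1, 2 and 3 averaged 70.6, 71.3 and 70.3 CPM, and the log2 fold change of KO over WT was 0.16 (SE 0.0353, adjusted p = 0.00731). Its count is uncertain because a near-identical copy exists. All 3 passed with each library left out in turn.

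The other 3 mRNAs of this kind did not pass. GADD45A, a stress-induced growth arrest gene, averaged 31.3 ± 1.64 CPM in KO and 30.6 ± 1.53 CPM in WT libraries (SD, n = 6 each). GADD45B had 3 to 19 counts a library, too few to be tested in heavy medium alone or within the KO libraries alone. TBL2 averaged 52.6 CPM in KO and 52.0 CPM in WT libraries.

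The 5 snoRNA host transcripts, noncoding RNAs whose introns carry small nucleolar RNAs, did not pass over both media and ranged widely within both genotypes. GAS5 had 432, 377 and 306 CPM in KO heavy and 395, 330.3 and 322 CPM in KO light libraries, against 321, 354 and 386 CPM in WT heavy and 274, 333 and 359 CPM in WT light libraries. KO lines 1, 2 and 3 averaged 413, 354 and 314 CPM, and this difference among the lines passed (adjusted p = 0.0236). SNHG1 averaged 149.6 ± 42.2 CPM in KO and 182 ± 33.6 CPM in WT libraries, a log2 fold change of -0.30 (adjusted p = 0.162). SNHG12 averaged 13.2 ± 3.57 CPM in KO and 17.8 ± 4.31 CPM in WT libraries, a log2 fold change of -0.43 (adjusted p = 0.0956). Without KO line 1 heavy, where 22.4% of genes were called (13.4% higher, 9.02% lower), both passed, SNHG1 at -0.42 (adjusted p = 0.0357) and SNHG12 at -0.56 (adjusted p = 0.031). SNHG15 and ZFAS1 had log2 fold changes of -0.05 and -0.01.

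All 8 splicing factors listed as having poison exons had a log2 fold change below 0, with a median of -0.20. Of them 6 fell: TRA2B, RSRC2, SRSF7, SRSF3, SRSF2 and HNRNPDL. Of all 16704 genes tested, 8261 were below 0 and 9.78% fell. TRA2B, an activator of exon inclusion (chromosome 3, 185915906 to 185938136, minus strand), had 370.1, 323 and 355 CPM in KO heavy and 315, 301 and 335 CPM in KO light libraries. WT heavy libraries had 396, 406 and 389 CPM and WT light libraries 366, 381 and 384 CPM. KO was below WT throughout each medium, as were 10.3% of genes in heavy and 14.3% in light medium. Over all 12 libraries the genotypes overlapped. The log2 fold change was -0.22 (SE 0.0425, adjusted p = 0.00432). RSRC2, an arginine- and serine-rich protein, had 106, 97.0 and 95.6 CPM in KO heavy and 80.5, 72.01 and 85.5 CPM in KO light libraries, against 110.4, 108 and 107 CPM in WT heavy and 89.0, 97.2 and 102 CPM in WT light libraries. It was also below WT throughout each medium but overlapped WT over all 12 libraries, with a log2 value of -0.20 (SE 0.0534, adjusted p = 0.017). TRA2B and RSRC2 passed with each library left out in turn, though RSRC2 did not with both libraries of KO line 2 left out (adjusted p = 0.0599).

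SRSF3, a splicing and export factor, had 642, 516 and 646 CPM in KO heavy and 506, 534 and 607 CPM in KO light libraries, against 646, 693 and 670.3 CPM in WT heavy and 651, 655 and 654 CPM in WT light libraries. Line 2 was low in both media and line 1 mainly in light medium. In light medium all KO libraries were below all WT libraries, as were 14.3% of genes. The log2 fold change was -0.20 for SRSF3 (adjusted p = 0.0256), -0.19 for SRSF7 (adjusted p = 0.0242) and -0.22 for SRSF2 (adjusted p = 0.0261), the last 2 also being regulators of exon choice. SRSF2 averaged 430.3 ± 46.9 CPM in KO and 502 ± 37.6 CPM in WT libraries, and it shares 36.7% of its exon bases with MFSD11 on the opposite strand. SRSF7 averaged 307 ± 33.9 CPM in KO and 350.3 ± 23.7 CPM in WT libraries. HNRNPDL averaged 595 ± 45.4 CPM in KO and 649 ± 37.2 CPM in WT libraries, a log2 fold change of -0.13 (adjusted p = 0.0481). SRSF6 had -0.13 (adjusted p = 0.0515) and TRA2A -0.05 (adjusted p = 0.504). Without KO line 1 heavy SRSF6 passed, at -0.17 (adjusted p = 0.0209), and 7 of the 8 splicing factors were lower. Leaving out 1 library ended the call of SRSF3 in 4 cases (KO lines 1 and 2 light, WT light numbers 2 and 3), of SRSF7 in these and KO line 2 heavy, and of SRSF2 in those 5 and WT heavy number 3. HNRNPDL lost its call without any of 9 libraries, all but KO lines 1 heavy and 3 light and WT light number 1, and with the replicate number as a block (adjusted p = 0.0638).

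In heavy medium alone 18 genes (0.112%) and 0 members passed, and in light medium alone 231 genes (1.44%; 0.906% higher, 0.537% lower) and 0 members passed. At an unadjusted p under 0.05 there were 3 factors and 4 sensitive transcripts in heavy medium, where 17.9% of all genes were, and 3 factors and 11 sensitive transcripts in light medium, where 25.2% were. With DESeq2 1 member of 811 genes called passed in heavy medium, and 9 members of 1737 genes called in light medium. The light comparison hung on the library of KO line 3: without it 6240 genes (38.4%) passed, and 19 members did, 8 factors and 8 sensitive transcripts as lower and UPP1, DNAJB2 and TMEM183A as higher. There MAGOH had a log2 fold change of -0.59 (adjusted p = 2.69e-06), UPF1 of -0.27 (adjusted p = 0.000497) and SRSF3 of -0.33 (adjusted p = 2.75e-05). Without any other light library 4 to 71 genes and 0 members passed. Without the heavy library of the same line, 2243 genes (13.6%) and 2 members, UPP1 and DNAJB2, passed in heavy medium. Heavy against light medium called 0 members in KO and 0 in WT cells (background 0% and 0.00631%), and the interaction of genotype and medium called 0 of 16704 genes; 0 members had an unadjusted p under 0.05 for it.

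**Figure D3:**
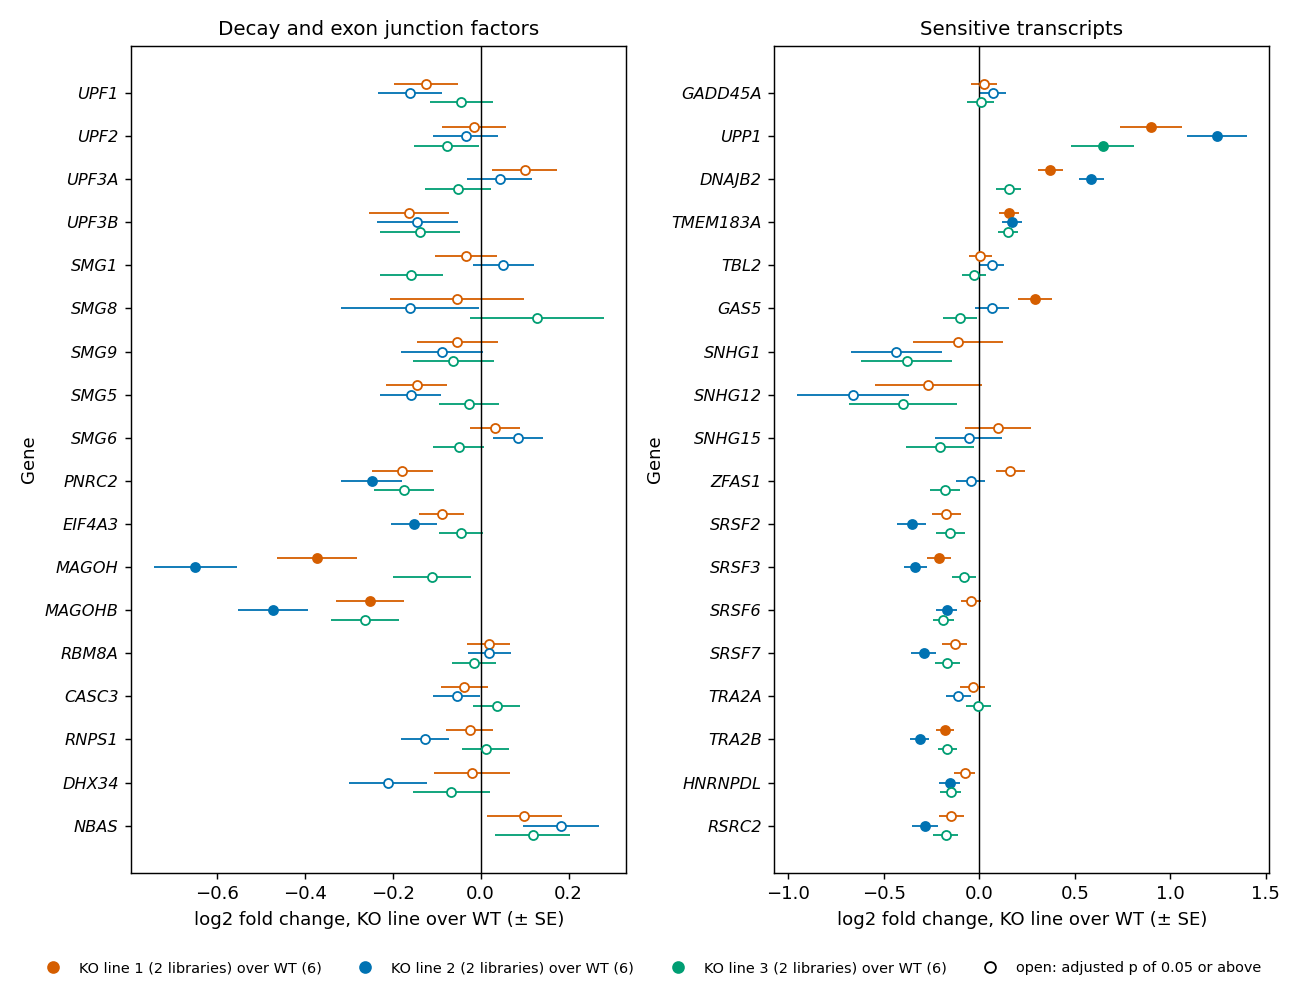
Log2 fold change of each member in KO lines 1, 2 and 3 against the 6 WT libraries, with bars of ± SE and filled points for adjusted p under 0.05; GADD45B is not shown. UPP1 is filled in all 3 lines, and line 2 has the most filled points.

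Each KO line was also set against the 6 WT libraries; the 3 comparisons share these WT libraries. Line 1 called 28.2% of genes (15.4% higher, 12.8% lower), with 2 factors lower (MAGOH and MAGOHB), 4 sensitive transcripts higher (UPP1, DNAJB2, TMEM183A and GAS5) and 2 lower (TRA2B and SRSF3). Without its heavy library 27.2% of genes (14.8% higher, 12.5% lower) and 5 factors as lower were called, UPF1, SMG5 and PNRC2 among them, and without its light library 1538 genes were called in place of 4714, with 0 factors and 0 transcripts lower. Line 2 called 43.0% of genes (22.9% higher, 20.1% lower), with 4 factors lower (MAGOH, MAGOHB, PNRC2 and EIF4A3), UPP1, DNAJB2 and TMEM183A higher, and all the splicing-factor members but TRA2A lower. Line 3 called 5.0% of genes (3.27% higher, 1.73% lower) and 1 member, UPP1, as higher. That call was lost without WT light number 1 or 3 (adjusted p = 0.056 and 0.0616). The log2 fold change of UPP1 in line 3 was 0.51 without the heavy and 0.77 without the light library of that line. MAGOH had log2 fold changes of -0.37, -0.65 and -0.11 in lines 1, 2 and 3 (adjusted p = 0.557 in line 3); the line 1 value was -0.59 without its heavy and -0.17 without its light library. UPP1 had log2 fold changes of 0.90, 1.24 and 0.65 in lines 1, 2 and 3. The difference among lines passed for 12.7% of genes and for 2 members, GAS5 and DNAJB2. DNAJB2 averaged 43.8, 50.8 and 37.7 CPM in lines 1, 2 and 3 (adjusted p = 0.0336), and MAGOH averaged 32.0, 26.3 and 38.1 CPM (adjusted p = 0.0599). For UPP1, SRSF3 and the remaining members tested, the test of a difference among lines did not pass, which does not show that the lines were alike. GADD45B was too low to be tested there.

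**Figure D4:**
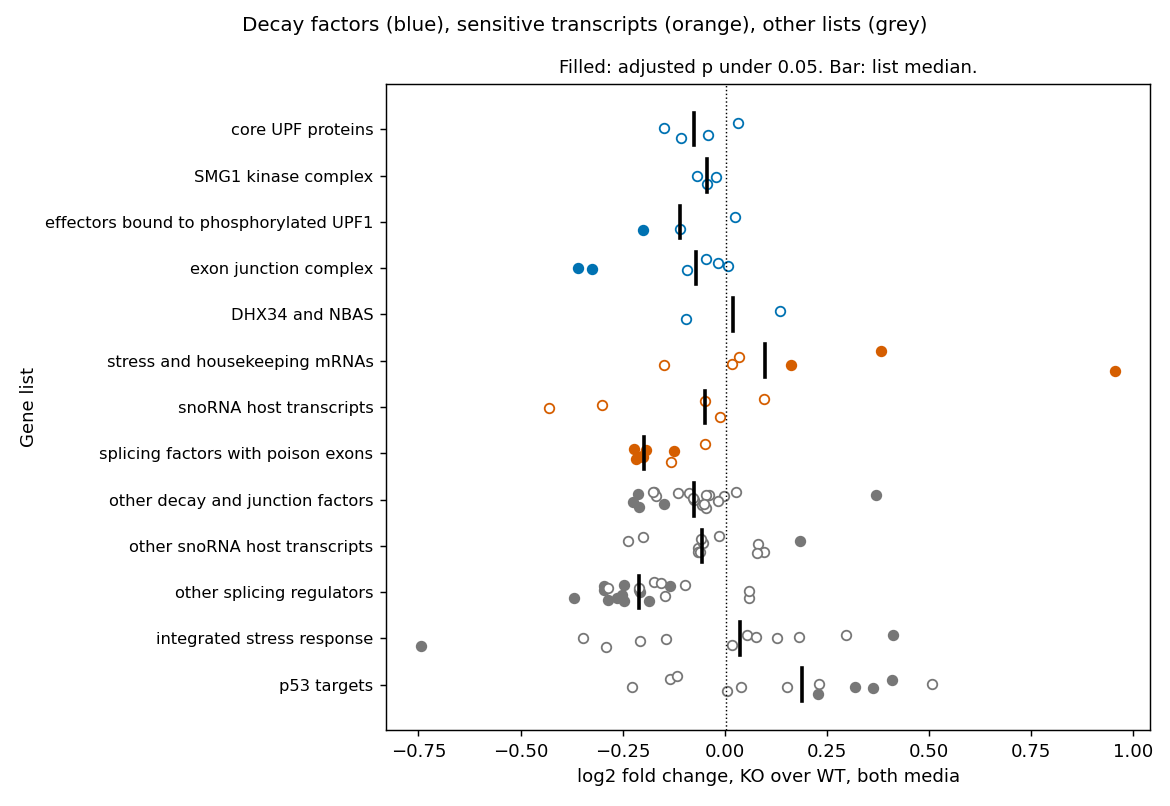
Log2 fold change over both media, KO over WT, for each member by role and for the other lists (grey), with filled points for adjusted p under 0.05 and a bar at each list's median. The splicing-factor members have a median of -0.20 and the other splicing regulators of -0.21.

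Other genes of the same processes, and stress-response and p53 genes, were taken from fixed lists. These lists were chosen with earlier results of these data known, so their counts are no independent check. Among all genes tested, 15.0% rose and 9.78% fell. Of 20 other decay and junction factors, 1 rose and 5 fell, with a median log2 fold change of -0.08; EXOSC10, an exosome nuclease, averaged 96.5 CPM in KO and 107 CPM in WT libraries (log2 fold change -0.15, adjusted p = 0.0112). Of 20 other splicing regulators, 0 rose and 12 fell, with a median of -0.21; SRSF10 averaged 219 CPM in KO and 268 CPM in WT libraries (log2 fold change -0.30, adjusted p = 0.00187). Of 12 other snoRNA hosts, 1 rose, SNHG29 (log2 fold change 0.18, adjusted p = 0.0182), and 0 fell. Of 12 integrated stress response genes, SESN2 rose and VLDLR fell. The counts of the snoRNA hosts and of the stress response genes are near the background. Of 12 p53 targets, 4 rose and 0 fell, RRM2B most clearly (log2 fold change 0.41, adjusted p = 0.00427). In lines 1, 2 and 3 alone, 3, 4 and 4 of them were higher and 2, 3 and 0 lower. Of all genes, 15.4%, 22.9% and 3.27% were higher there and 12.8%, 20.1% and 1.73% lower. With counts summed per line, 1 of the 20 other splicing regulators was called, as lower, where 0.446% of all genes were. In that fit 0 genes of the other lists named here were called.

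Decay transcripts were annotated for 9 of 18 factors (50%), 11 of 14 coding sensitive transcripts (78.57%) and 5513 of 13026 coding genes tested (42.32%). Of the called members, 1 of 3 that rose and 7 of 9 that fell had such a transcript. Of these 9, 6 were splicing factors with poison exons, a list on which all 8 genes have one. The share among those that fell therefore follows from that list. Over all coding genes, 15.56% of those with an annotated decay transcript rose and 10.03% fell, against 16.72% and 11.75% of those without, with median log2 fold changes of 0.0034 and -0.0012. Genes within 5 Mb of the called members had median log2 fold changes between -0.055 (around TRA2B) and 0.072 (around UPP1).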

How the data were processed

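Poly(A) RNA of 12 cultures was sequenced from stranded libraries, per the labels' protocols. The deposited values are raw counts of reads per gene, made by the authors; per the submitters' processing notes, bcl2fastq 2.19.0, STAR 2.7.0f, featureCounts of Subread 1.6.4, DESeq2 1.22.1 and R 3.5.1 were used with GRCh38.p13. Annotation release, strand setting and handling of multiply matching reads were not given in the sources used here.

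The counts were fitted with edgeR 4.0.16 in R 4.3.3 (TMM, filterByExpr, robust quasi-likelihood F tests, Benjamini-Hochberg adjustment at 0.05). KO and WT were compared with medium as a covariate, in each medium, per KO line and on counts summed per line; media were compared within each genotype. Standard errors derive from the F statistic. The fit was run on simulated counts in which all libraries were independent, so this cannot check how libraries of the same KO line affect the tests. Library totals of 25935152 to 40257027 counts limit low genes most.

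Gene positions, decay annotation and transcript sequences came from GENCODE 29 on GRCh38. Alternatives were RLE size factors, DESeq2 1.42.0, 2 other low-count filters, a replicate block, a shared spread, and left-out libraries and lines. Libraries of 1 KO line share a number by the labels; same-numbered KO heavy and light libraries had r of 0.05, 0.586 and 0.646, and KO and WT numbers pair nothing. Members and lists were chosen with earlier results of these data known. Members past 0.05 over both media, in a medium or in a line, and UPF1, were given full statistics; of other lists, at most the 2 with the smallest p were named.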

Additional observations from a re-analysis of the deposited data

Results flagged for a closer look

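GAS5 differed among the 3 KO lines (edgeR's quasi-likelihood F test with Benjamini-Hochberg adjustment, adjusted p = 0.0236), with averages of 413, 354 and 314 CPM in lines 1, 2 and 3. DNAJB2 also differed among them (adjusted p = 0.0336), with averages of 43.8, 50.8 and 37.7 CPM. Each line is 2 libraries, and 12.7% of all genes passed the same test. How many members passed it changed with the library left out. With any KO library left out its line is 1 library, so the test is not given for such fits. In the WT libraries GAS5 ran between 274 and 386 CPM, and DNAJB2 between 32.0 and 35.2 CPM.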

How the results depend on the processing

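Over both media UPP1, DNAJB2, TMEM183A, MAGOHB, PNRC2, TRA2B and RSRC2 passed with each of the 12 libraries left out and with RLE size factors, DESeq2 and either other filter. Leaving out 1 library gave 2 to 5 factors lower, 0 to 1 higher, 2 to 9 sensitive transcripts lower and 3 to 3 higher. All genes called ran from 2632 to 5907 in these fits, so the member counts moved along with the background. Summing counts per line gave 0 factors lower, 0 transcripts lower and 0 higher. Without KO line 2, 1 factor and 1 transcript were lower; without KO line 3, 6 factors were. Genes called over both media were 272 on summed counts and 2327, 1710 and 7415 without KO lines 1, 2 and 3, against 4135.

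In heavy medium the members called were 1 with DESeq2, 2 with no filter and 0 to 2 with a library left out, and genes called were 811 with DESeq2, 775 with no filter, 9 with the 1 CPM filter and 99 with a shared spread. In light medium the members called were 9 with DESeq2, 8 with no filter, 1 with a shared spread and 0 to 19 with a library left out, and genes called were 1737, 1351 and 616. In line 1, leaving out 1 library gave 0 to 5 factors lower, and 0 to 4 transcripts lower and 2 to 4 higher. In line 2 it gave 2 to 8 factors lower, 0 to 1 higher, and 4 to 7 transcripts lower and 2 to 3 higher. In line 3 it gave 0 to 1 factors lower, 0 to 2 transcripts lower and 0 to 1 higher. Line 3 had 2 transcripts lower with RLE size factors, DESeq2 or the 1 CPM filter and 6 with no filter, and 1 factor lower with DESeq2 or no filter. The difference among lines called 5 members and 3411 genes with no filter, and the line 3 comparison called 1387 genes with no filter. The cause was not tested.

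Sign changes all had adjusted p over 0.4: RBM8A at -7e-04 with RLE size factors and with DESeq2 and at -0.0039 without KO line 2; UPF3A -0.0067, GADD45B 0.11 and GAS5 -0.018 without line 1; SMG8 0.033, SMG6 -0.013 and TBL2 -0.016 without line 2; and SMG1 0.0082, SNHG15 0.022 and ZFAS1 0.064 without line 3. With 1 library left out the log2 fold change ranged over -0.42 to 0.098 for GADD45B, -0.008 to 0.018 for RBM8A, -9e-04 to 0.038 for SMG6, -0.14 to 0.044 for SMG8, -0.12 to 0.0054 for SNHG15, -0.004 to 0.039 for TBL2, -8e-04 to 0.068 for UPF3A and -0.075 to 0.019 for ZFAS1.

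With the replicate number as a block HNRNPDL lost its call (adjusted p = 0.0638) and no other member's call changed; genes called were 94 in heavy medium, 153 in light medium and 13 for the medium in WT cells. Without a filter MAGOH (adjusted p = 0.0642) and HNRNPDL (adjusted p = 0.0813) lost theirs. SRSF6 passed with RLE size factors (adjusted p = 0.0416), the 1 CPM filter (adjusted p = 0.0466) and DESeq2 (adjusted p = 0.0219), and EIF4A3 (adjusted p = 0.0407) and SNHG12 (adjusted p = 0.0392) passed with DESeq2.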
